A study of Mus musculus with 24 samples.

Results

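Mouse oocytes exposed to polystyrene microplastics and made to overexpress the histone deacetylase gene Hdac3 (PSMPs & OE-Hdac3, 2 libraries) were compared, gene by gene, with oocytes exposed to the microplastics in culture (in vitro PSMPs, 2 libraries). These 4 RNA sequencing libraries were chosen by their labels from the 24 samples of the series, of which 12 are RNA samples and 12 are chromatin samples that were not analysed here. The other RNA groups were oocytes exposed in the animal (in vivo PSMPs), oocytes given the histone deacetylase inhibitor SAHA, culture controls (con-in vitro) and further controls (con), with 2 samples each. Since the samples of in vivo PSMPs differed by less than the sampling noise, they were counted as 1 sample. Each RNA reaction used 5 cells, which the design text calls embryos and the labels call oocytes. The PSMPs & OE-Hdac3 and in vitro PSMPs groups share the exposure to microplastics. The labels do not say whether the overexpressing oocytes met the microplastics in the animal or in culture, and give neither the way Hdac3 was delivered nor the strain, age or stage. Overexpression, the delivery itself and any difference in route of exposure therefore cannot be told apart here.

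Hdac3 is a class I histone deacetylase. It is the catalytic subunit of the NCoR and SMRT corepressor complexes, which remove acetyl groups from histones at repressed genes. A fully grown oocyte is nearly silent in transcription and lives on stored messenger RNA, so its RNA content reflects storage and decay as well as synthesis.

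Library totals were 9.81 M and 7.03 M counts in PSMPs & OE-Hdac3 and 10.04 M and 12.56 M in in vitro PSMPs, within 6.22 M to 35.6 M over the RNA series. In PSMPs & OE-Hdac3 19.1% and 20.8% of the counts fell on the 100 most abundant genes, against 31.5% and 33.9% in in vitro PSMPs. Across genes, log2 CPM (CPM is a gene's counts relative to its library's total, which was scaled by TMM factors) correlated at 0.963 between the PSMPs & OE-Hdac3 libraries and at 0.944 between the in vitro PSMPs libraries. In vitro PSMPs replicate 2 correlated with the SAHA libraries at 0.956 and 0.954, no less than with its own replicate. PSMPs & OE-Hdac3 replicates 1 and 2 correlated with in vivo PSMPs at 0.854 and 0.86. With in vitro PSMPs they correlated at 0.841 and 0.856 for its replicate 1 and at 0.799 and 0.81 for its replicate 2. Markers of other cells were low. The 21 cumulus and granulosa cell markers summed to 19.4 and 20.8 CPM in PSMPs & OE-Hdac3 and to 37.7 and 63.9 CPM in in vitro PSMPs, and none of the 15 tested passed the test. Most of that sum was Cyp19a1, the aromatase of estrogen synthesis, at 10.1 and 11.5 CPM in PSMPs & OE-Hdac3 and 28.1 and 48.5 CPM in in vitro PSMPs. Kitl was at 3.38 and 5.46 CPM in PSMPs & OE-Hdac3 and 6.97 and 12.2 CPM in in vitro PSMPs. Most of the 15 tested went the other way, with 10 fits above 0, 4 below and a median log2 of 1.21. Foxl2, a defining granulosa gene, reached at most 0.260 CPM and Inhbb had no count in any of the 4 libraries. The 11 blood, immune and endothelial markers summed to 15.2 and 16.7 CPM in PSMPs & OE-Hdac3 and to 53.9 and 73.5 CPM in in vitro PSMPs. Of these, 8 had no count in the 4 libraries, and most of the sum was the endothelial adhesion gene Pecam1, at 11 and 14.1 CPM in PSMPs & OE-Hdac3 and 49.3 and 67.1 CPM in in vitro PSMPs (log2 -2.21 ± 0.69, adjusted p = 0.111). The part of these cells in the results below was not tested. In pooled cells, fewer cells of a type and less RNA per cell cannot be told apart.

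Hdac3 (ENSMUSG00000024454.16, mm10 chr18:37935844-37955016) stood at 336 and 228 CPM in the overexpressing oocytes, against 15.3 and 9.37 CPM in in vitro PSMPs, on 5160 and 2509 counts in PSMPs & OE-Hdac3 and 189 and 116 counts in in vitro PSMPs. Both overexpressing libraries lay above every other library of the series, in which Hdac3 ranged from 7.17 CPM in SAHA to 37.4 CPM in con. The difference was log2 4.51 ± 0.50 (SE), or 22.8-fold (adjusted p = 0.0084, edgeR's quasi-likelihood test, Benjamini-Hochberg over the 16736 genes tested). At the same threshold of 0.05, 4.83% of all genes tested passed. None of the other histone deacetylase genes did. These were Hdac1, Hdac2 and Hdac8 of class I, the 6 tested genes of classes II and IV, and the 7 sirtuins, and Hdac5 had too few counts to be tested. Hdac2, the partner of Hdac1 in the SIN3 and NuRD complexes, stood at 51.9 and 46.3 CPM in PSMPs & OE-Hdac3 and 96.5 and 92.3 CPM in in vitro PSMPs (log2 -0.94 ± 0.60, adjusted p = 0.435). Hdac8 was at 12.9 and 12.5 CPM in the overexpressing oocytes and 18.2 and 18.4 CPM in in vitro PSMPs, and the sparse Hdac1 at 6.57 and 2.27 CPM in PSMPs & OE-Hdac3 and 4.38 and 3.96 CPM in in vitro PSMPs. Hdac2 and Hdac8 groups did not overlap, with the overexpressing oocytes lower, as in 34.0% of all genes tested, and the Hdac1 groups did.

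Among the class II enzymes, Hdac6, which deacetylates tubulin, was at 25.2 and 20.4 CPM in the overexpressing oocytes and 6.73 and 5.41 CPM in in vitro PSMPs (log2 1.91 ± 1.53, adjusted p = 0.55). Hdac4, which shuttles between nucleus and cytoplasm, was at 22.7 and 16.6 CPM in PSMPs & OE-Hdac3 and 8.19 and 24.7 CPM in in vitro PSMPs with overlapping groups (log2 0.25 ± 0.90, adjusted p = 0.909). Of the sirtuins, the NAD-dependent deacetylases, the chromatin sirtuin Sirt6 was at 43.2 and 30.4 CPM in the overexpressing oocytes and 18.7 and 10.0 CPM in in vitro PSMPs (log2 1.36 ± 0.44, adjusted p = 0.122), and the mitochondrial Sirt4 at 19.8 and 21.1 CPM in PSMPs & OE-Hdac3 and 41.8 and 78.4 CPM in in vitro PSMPs (log2 -1.56 ± 0.55, adjusted p = 0.158). The partners of Hdac3 in the NCoR and SMRT complexes did not pass either, 0 of 5, with a median log2 of -0.19. The scaffold Ncor1 was at 68.3 and 57.0 CPM in the overexpressing oocytes and 47.7 and 95.2 CPM in in vitro PSMPs, and Tbl1xr1, an adaptor of the complex, at 30.2 and 35.4 CPM in PSMPs & OE-Hdac3 and 50.9 and 87.4 CPM in in vitro PSMPs (log2 -1.08 ± 0.51, adjusted p = 0.285). The Ncor1 groups overlapped, and its fold changed sign with the scaling (log2 -0.19 by TMM and 0.36 by library totals). The Tbl1xr1 groups did not overlap, with the overexpressing oocytes lower, as in 34.0% of all genes tested.

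Trim21 (ENSMUSG00000030966.13, mm10 chr7:102557921-102565486), which encodes a cytosolic antibody receptor and ubiquitin ligase of the tripartite motif family, rose further than Hdac3. It stood at 2398 and 1668 CPM in the overexpressing oocytes, against 7.70 and 6.22 CPM in in vitro PSMPs, and at 1.02 CPM or less in all 7 remaining libraries. Its level in PSMPs & OE-Hdac3 rests on 36859 and 18338 counts, and that in in vitro PSMPs on 95 and 77 counts. The difference was log2 8.19 ± 1.10, or 292-fold (adjusted p = 0.0121, edgeR), the largest fold among genes that rose and had counts in in vitro PSMPs. Both overexpressing libraries thus stood far above every other library. The rest of the Trim family, with 45 of 67 genes tested, had 1 gene higher and 2 lower. Over all genes tested 1.85% were higher and 2.98% lower. Trim41, a ubiquitin ligase, was at 36.2 and 34.4 CPM in PSMPs & OE-Hdac3, against 4.30 and 2.75 CPM in in vitro PSMPs (log2 3.32 ± 0.59), and Trim59 and Trim23 fell (log2 -2.79 ± 0.52 and log2 -2.49 ± 0.53). Of 47 interferon response and RNA sensing genes 27 were tested and none passed, with a median log2 of 0.53. The interferon regulator Irf1 was at 131 and 123 CPM in the overexpressing oocytes and 48.2 and 18.7 CPM in in vitro PSMPs (log2 1.93 ± 1.70, adjusted p = 0.59).

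**Figure D1:**
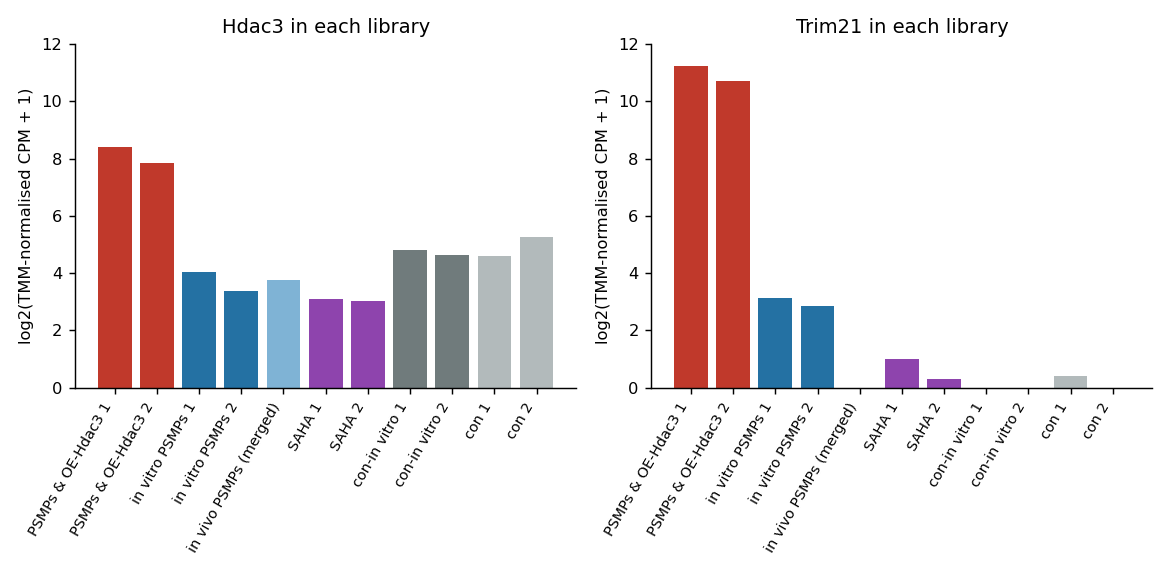
Level of Hdac3 and of Trim21 in each of the 11 libraries, as log2(CPM + 1), 1 bar per library with the overexpressing oocytes first. For both genes the 2 PSMPs & OE-Hdac3 bars stand above all others, and Trim21 is near 0 outside PSMPs & OE-Hdac3 and in vitro PSMPs.

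Across the transcriptome 808 of 16736 genes passed, 309 higher in PSMPs & OE-Hdac3 (1.85% of the genes tested) and 499 lower (2.98%). The median log2 fold change was 2.81 among the genes that rose and -2.32 among those that fell, so that called genes mostly differed several-fold. Genes that rose had a median of 104 CPM in PSMPs & OE-Hdac3, and genes that fell a median of 220 CPM in in vitro PSMPs. The balance of directions depends on the scaling. Scaled by library totals, the median over all genes was log2 0.60, against 0.10 by TMM, and 548 genes were higher and 306 lower. Fold changes below are on the TMM scale and are to be read against that shift. The libraries of the groups did not overlap in any of the 808 genes, nor in 38.0% of all genes tested on the higher side and 34.0% on the lower side.

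The number of calls rests on each of the 4 libraries and on those outside the comparison that share the estimate of spread. With edgeR's quasi-likelihood test no gene passed without PSMPs & OE-Hdac3 replicate 1 (1738 at an unadjusted p under 0.05, and 989 called by DESeq2's Wald test) or without replicate 2 (1893 and 1089). Without in vitro PSMPs replicate 1 there were 241 calls, and without replicate 2 there was 1 call. There were 265 and 254 calls without SAHA replicate 1 or 2, 2376 and 2393 without con replicate 1 or 2, and 1318 and 1310 without con-in vitro replicate 1 or 2. With con and con-in vitro left out of the fit, an alternative added after seeing the data, 5999 genes passed, including all 808, and still 2820 and 3245 without PSMPs & OE-Hdac3 replicate 1 or 2. Hdac3 and Trim21 had adjusted p of 0.136 and 0.147 without PSMPs & OE-Hdac3 replicate 1, 0.0841 and 0.119 without its replicate 2, 0.0394 and 0.0792 without in vitro PSMPs replicate 1 and 0.0843 and 0.12 without its replicate 2, while DESeq2's Wald test called both genes in each case. Whether replicates are separate animals or cultures is not stated by the labels, and p-values then reflect only how much these samples differ, which may be technical.

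**Figure D2:**
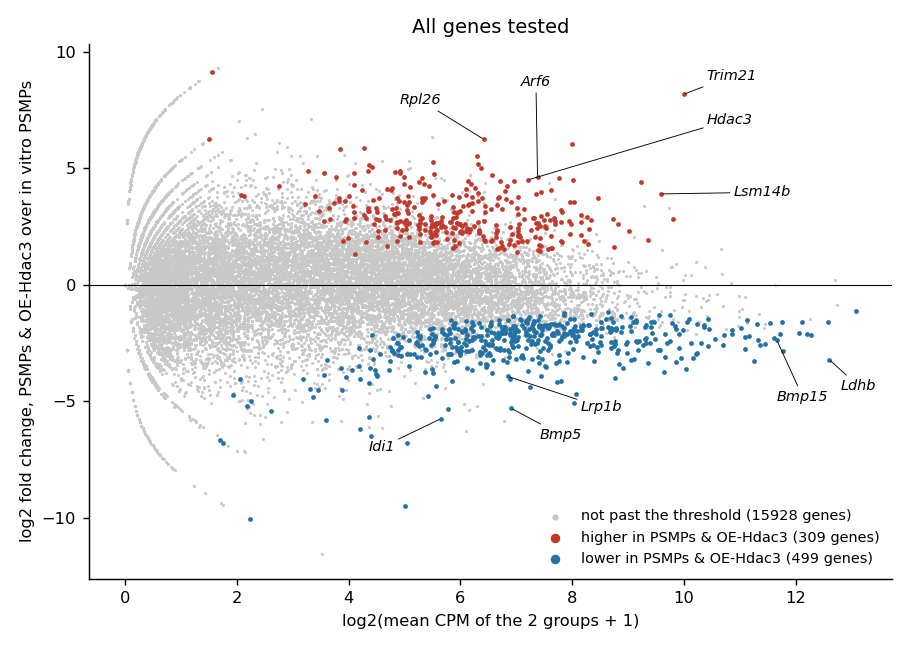
Log2 fold change of PSMPs & OE-Hdac3 over in vitro PSMPs against the mean level, log2(CPM + 1), 1 point per gene tested. Coloured points are the 309 higher and 499 lower genes, and Trim21, at the upper right, stands above all genes of like level.

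Among the lists examined, the proteins of the cytosolic ribosome held the most genes that rose. Of 89 ribosomal protein genes 83 were tested, and 27 rose and 1 fell, beside 1.85% higher and 2.98% lower over all genes tested. The median log2 over the 83 was 3.03, against 0.10 over all genes tested (3.44 against 0.60 with library totals). In 78 of the 83 both overexpressing libraries lay above both in vitro PSMPs libraries, a state that 38.0% of all genes share. The genes of the list summed to 11910 and 12380 CPM in PSMPs & OE-Hdac3, against 2500 and 2092 CPM in in vitro PSMPs. Elsewhere the same sum was 2162 and 1753 CPM in SAHA, 9434 CPM for in vivo PSMPs, 2833 and 5876 CPM in con, and 2732 and 1749 CPM with con-in vitro oocytes. The overexpressing oocytes were thus the highest of the series, the in vivo PSMPs library came next, and in vitro PSMPs lay among the low ones. With edgeR's test no ribosomal protein gene was called higher without either overexpressing library or without in vitro PSMPs replicate 2, and 3 were without in vitro PSMPs replicate 1. Without SAHA replicate 1 or 2 there were 9 and 8, and without con replicate 1 or 2 there were 62 each.

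Ribosomal protein messenger RNAs typically begin with a run of pyrimidines, through which their translation follows growth signals. The starts of the 4 genes of this list with the smallest p are shown because these genes moved together. Each line runs 5' to 3' on the gene's strand from 100 bases before to 30 bases after the RefSeq start (GRCm38.p6). Capitals mark CTTTC or TTTCC (pyrimidine stretches, within 30 bases of the start) and CCGGAAG (the core of ETS family sites), searched on both strands. Windows are chr10:23787180-23787309 (minus strand) for Rps12, chr11:68901466-68901595 (plus strand) for Rpl26, chr9:120127666-120127795 (plus strand) for Rpsa and chr7:28350589-28350718 (plus strand) for Rps16.
Rps12: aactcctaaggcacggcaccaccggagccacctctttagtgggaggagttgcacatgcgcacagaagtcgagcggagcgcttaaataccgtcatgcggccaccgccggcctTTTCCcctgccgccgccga
Rpl26: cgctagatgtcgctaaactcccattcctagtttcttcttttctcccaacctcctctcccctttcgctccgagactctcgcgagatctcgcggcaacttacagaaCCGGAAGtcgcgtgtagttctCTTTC
Rpsa: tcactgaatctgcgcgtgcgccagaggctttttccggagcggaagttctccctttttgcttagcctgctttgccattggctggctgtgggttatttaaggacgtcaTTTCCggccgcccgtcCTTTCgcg
Rps16: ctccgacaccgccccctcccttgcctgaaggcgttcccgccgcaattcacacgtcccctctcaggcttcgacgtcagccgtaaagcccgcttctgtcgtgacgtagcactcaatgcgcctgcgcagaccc

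RefSeq promoter windows, from 250 bases before to 50 after the start, matched 20 of the 27 ribosomal protein genes that rose, 38 of the 55 that did not pass, and 11519 of the tested genes. CTTTC near the start, on either strand, was found in 30% of those that rose, 52.6% of those that did not pass and 15.6% of the tested genes. TTTCC, which overlaps CTTTC where both occur as CTTTCC, was found in 35%, 36.8% and 18.3% in the same order, and CCGGAAG anywhere in the window in 45%, 39.5% and 18.1%. Rps16 holds none of these motifs in the window shown. CTTTC was thus no more frequent among the ribosomal genes that rose than among those that did not pass.

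Rps12, a small-subunit protein, stood at 167 and 231 CPM in PSMPs & OE-Hdac3, against 7.94 and 9.94 CPM in in vitro PSMPs (log2 4.48 ± 0.53, adjusted p = 0.0107, edgeR). Rpl26, a large-subunit protein that also binds the p53 messenger RNA, stood at 187 and 147 CPM in the overexpressing oocytes, against 2.51 and 1.86 CPM in in vitro PSMPs (log2 6.25 ± 0.85, adjusted p = 0.0113). Rpsa, a small-subunit protein also known as a laminin receptor, stood at 127 and 128 CPM in PSMPs & OE-Hdac3, against 9.57 and 5.09 CPM in in vitro PSMPs (log2 4.12 ± 0.57, adjusted p = 0.0113). In all of these the libraries of a group lay close together and the groups far apart. Rps16, whose start holds no marked motif, was at 189.6 and 185 CPM in the overexpressing oocytes, against 16.4 and 12 CPM in in vitro PSMPs (log2 3.72 ± 0.51, adjusted p = 0.0113). Rpl36a, Rpl27a, Rpl28 and Rpl30 were also among the 15 largest rises, with log2 from 4.86 for Rpl30 to 5.56 for Rpl36a. The single ribosomal gene that fell, Rps27l, a p53-responsive paralog of Rps27, was at 74.4 and 84.9 CPM in PSMPs & OE-Hdac3, against 225 and 322 CPM in in vitro PSMPs (log2 -1.78 ± 0.43, adjusted p = 0.0498), and was named after its values were seen. Ribosomal protein genes have many processed copies, between which reads may be split. The 90 tested copies had a median log2 of 2.39, with 2 higher and 0 lower.

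**Figure D3:**
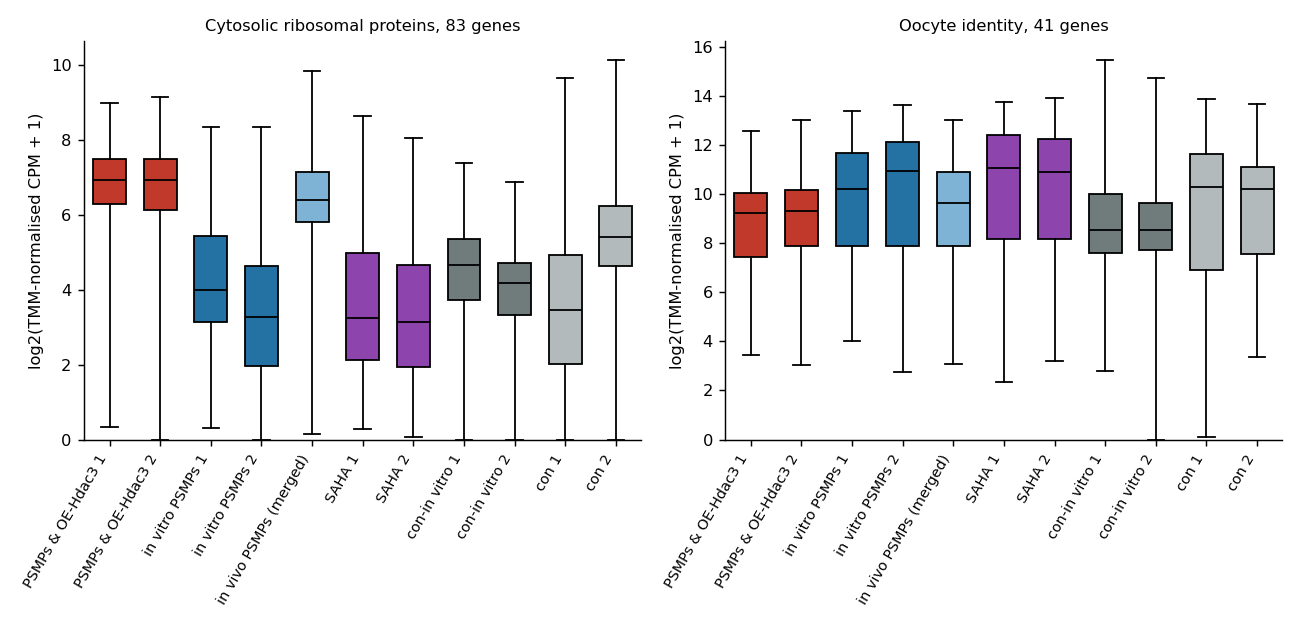
Levels of the 83 tested ribosomal protein genes and of the 41 tested oocyte identity genes in each library, as log2(CPM + 1). Boxes span the quartiles with a line at the median, and whiskers reach the lowest and the highest gene. The ribosomal boxes of PSMPs & OE-Hdac3 lie above those of in vitro PSMPs, and the oocyte identity boxes below.

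Other steps of translation and RNA processing moved gene by gene, beside 1.85% higher and 2.98% lower over all genes tested. Of 45 translation initiation factors 4 rose and 2 fell, with a median log2 of 0.55. Eif4e1b, the cap-binding protein of oocytes, stood at 90.6 and 167 CPM in the overexpressing oocytes, against 9.73 and 13.6 CPM in in vitro PSMPs (log2 3.46 ± 0.52, adjusted p = 0.0121, edgeR). Eif3f and Eif4b, which join the small ribosomal subunit to the messenger RNA, rose as well (log2 3.66 and 2.34), while Eif2b1, a subunit of the exchange factor that recharges eIF2, was at 305 and 295 CPM in PSMPs & OE-Hdac3, against 869 and 1100 CPM in in vitro PSMPs (log2 -1.71 ± 0.31). Of 56 genes of the core splicing machinery 4 rose and 1 fell. Prpf8, the protein at the heart of the spliceosome, stood at 154 and 140.2 CPM in the overexpressing oocytes, against 19.5 and 24.4 CPM in in vitro PSMPs (log2 2.74 ± 0.53, adjusted p = 0.0228). Sf1, which recognises the branch point, and Prpf19 also rose, and the splicing regulator Srsf10 was at 25.9 and 26.0 CPM in PSMPs & OE-Hdac3, against 145 and 164 CPM in in vitro PSMPs (log2 -2.57 ± 0.32, adjusted p = 0.0111).

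The genes that store and clear maternal messenger RNA showed single large changes. Of 50 tested, 2 rose and 2 fell, with a median log2 of -0.05, beside 1.85% higher and 2.98% lower over all genes tested. Lsm14b (mm10 chr2:180024987-180035465), a protein of the oocyte's RNA storage granules, stood at 1635 and 1250 CPM in the overexpressing oocytes, against 61.7 and 131 CPM in in vitro PSMPs (log2 3.91 ± 0.50, adjusted p = 0.0113, edgeR). It was at 89.0 and 67.0 CPM in SAHA, 1039 CPM for in vivo PSMPs, 1892 and 1713 CPM in con, and 21240 and 45010 CPM with con-in vitro oocytes. The overexpressing oocytes thus lay near in vivo PSMPs and con, in vitro PSMPs near SAHA, and con-in vitro far above all of them. Cnot7, a deadenylase of the CCR4-NOT complex, went the other way, at 179.9 and 224 CPM in PSMPs & OE-Hdac3, against 1455 and 2100 CPM in in vitro PSMPs (log2 -3.14 ± 0.35, adjusted p = 0.0084). Btg4, the adaptor that brings this complex to maternal transcripts, fell too, at 1713 and 1550 CPM in the overexpressing oocytes, against 5584 and 8226 CPM in in vitro PSMPs (log2 -2.08 ± 0.38). Edc4, a scaffold of decapping, rose (log2 1.57 ± 0.37, adjusted p = 0.0452).

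Genes that mark the oocyte lay on the lower side. Of 42 oocyte identity genes 41 were tested, none rose and 13 fell, with a median log2 of -1.59 (7 fell, with a median of -1.04, by library totals). By TMM, 2.98% of all genes tested were lower. In 29 of the 41 both overexpressing libraries lay below both in vitro PSMPs libraries, a state that 34.0% of all genes share. The genes summed to 35680 and 42760 CPM in PSMPs & OE-Hdac3, against 87730 and 118000 CPM in in vitro PSMPs. Elsewhere this sum was 130600 and 126000 CPM in SAHA, 61120 CPM for in vivo PSMPs, 98490 and 82970 CPM in con, and 70910 and 50420 CPM with con-in vitro oocytes. The overexpressing oocytes were the lowest of the series in this sum and in vitro PSMPs and SAHA among the high ones. All 8 defining oocyte markers nevertheless remained abundant, at 342.9 CPM or more in each overexpressing library.

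The promoters of the 4 oocyte identity genes of smallest p are shown as the counterpart of the ribosomal ones, from 250 bases before to 30 after the RefSeq start (GRCm38.p6). Capitals mark CANNTG, the E-box bound by the oocyte factor Figla and other helix-loop-helix proteins, and TAATTG, the element bound by the oocyte factor Nobox, on both strands. Windows are chrX:6320695-6320974 (minus strand) for Bmp15, chr12:105222708-105222987 (minus strand) for Tcl1, chr9:78327780-78328059 (plus strand) for Omt2b and chr13:112652281-112652560 (minus strand) for Ddx4.
Bmp15: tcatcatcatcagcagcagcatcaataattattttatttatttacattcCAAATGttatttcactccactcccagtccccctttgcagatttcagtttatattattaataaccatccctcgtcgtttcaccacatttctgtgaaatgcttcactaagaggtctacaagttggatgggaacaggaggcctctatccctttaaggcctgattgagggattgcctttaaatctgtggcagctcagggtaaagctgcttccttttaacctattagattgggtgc
Tcl1: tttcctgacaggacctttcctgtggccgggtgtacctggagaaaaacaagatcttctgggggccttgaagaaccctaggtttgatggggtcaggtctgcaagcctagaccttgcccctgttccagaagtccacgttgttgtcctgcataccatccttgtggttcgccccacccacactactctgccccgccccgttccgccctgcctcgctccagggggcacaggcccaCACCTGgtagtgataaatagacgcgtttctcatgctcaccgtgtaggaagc
Omt2b: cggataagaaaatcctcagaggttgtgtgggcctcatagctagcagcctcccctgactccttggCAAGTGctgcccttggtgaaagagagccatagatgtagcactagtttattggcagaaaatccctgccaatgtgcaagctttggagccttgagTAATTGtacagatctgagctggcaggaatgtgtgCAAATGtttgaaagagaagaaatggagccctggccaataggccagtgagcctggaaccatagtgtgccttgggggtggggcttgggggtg
Ddx4: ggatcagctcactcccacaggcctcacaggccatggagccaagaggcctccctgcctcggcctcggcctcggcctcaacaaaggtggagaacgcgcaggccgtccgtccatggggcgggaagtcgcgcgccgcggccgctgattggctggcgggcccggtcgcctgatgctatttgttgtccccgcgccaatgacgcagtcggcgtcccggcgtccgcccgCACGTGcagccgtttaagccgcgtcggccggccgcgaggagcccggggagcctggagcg

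In the 300-base windows CANNTG was found in all 11 oocyte identity genes that fell and had a window, in 20 of 21 that did not pass, and in 69.9% of the tested genes. TAATTG was found in 2 of the 11, in 2 of the 21, and in 6.7% of the tested genes. Of the sequences shown Omt2b alone holds both. The E-box was thus present in nearly all oocyte identity genes with a window, whether or not they passed the test.

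Bmp15 (mm10 chrX:6314107-6320721), the growth factor through which the oocyte acts on its granulosa cells, stood at 932 and 1178 CPM in PSMPs & OE-Hdac3, against 4401 and 6451 CPM in in vitro PSMPs (log2 -2.36 ± 0.31, adjusted p = 0.0113, edgeR). Its partner Gdf9 was at 6090 and 8257 CPM in the overexpressing oocytes and 5331 and 7092 CPM in in vitro PSMPs, with overlapping groups (log2 0.21 ± 0.33, adjusted p = 0.775). Tcl1, a co-activator of the kinase Akt, stood at 1576 and 1961 CPM in PSMPs & OE-Hdac3, against 6360 and 8982 CPM in in vitro PSMPs (log2 -2.12 ± 0.32, adjusted p = 0.0132). Bmp15 and Tcl1 were thus several-fold lower in the overexpressing oocytes, and no difference was resolved for Gdf9. Omt2b, an oocyte maturation transcript, was at 454 and 496 CPM in the overexpressing oocytes, against 2248 and 3471 CPM in in vitro PSMPs (log2 -2.59 ± 0.42), and Ddx4, the germ cell RNA helicase known as Vasa, at 44.2 and 38.9 CPM in PSMPs & OE-Hdac3, against 172 and 233 CPM in in vitro PSMPs (log2 -2.28 ± 0.40). The others that fell, named after their values were seen, were Btg4, Bcl2l10, Nlrp14, Obox1, E330034G19Rik, Tcl1b1, H1f8, Omt2a and Oog3. Obox1, Oog3, Nlrp14 and Tcl1b1 belong to families of similar copies, between which reads may be split. Zp1, Zp2 and Zp3, the genes of the egg coat, had log2 of -1.95, -1.90 and -1.75 with adjusted p from 0.107 to 0.156 (edgeR). Their groups did not overlap, as on the lower side in 34.0% of all genes tested.

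The subcortical maternal complex, which lies under the oocyte's membrane and is needed for early cleavage, had 2 of 8 members lower, beside 2.98% of all genes tested. Nlrp5, also called Mater, was at 417 and 343 CPM in the overexpressing oocytes, against 1952 and 2349 CPM in in vitro PSMPs (log2 -2.50 ± 0.42, adjusted p = 0.016, edgeR), and Nlrp4f, of a family of similar copies, fell (log2 -1.46 ± 0.31). Ooep was at 1175 and 1373 CPM in PSMPs & OE-Hdac3 and 905 and 1006 CPM in in vitro PSMPs (log2 0.42 ± 0.57, adjusted p = 0.74). Among 33 genes of actin nucleation and the cortex 2 rose and 1 fell, beside 1.85% higher and 2.98% lower over all genes tested. Arf6 (mm10 chr12:69372150-69373783), a small GTPase of membrane and actin traffic, stood at 369 and 268 CPM in the overexpressing oocytes, against 13.3 and 12.4 CPM in in vitro PSMPs (log2 4.63 ± 0.45, adjusted p = 0.00775). It was at 8747 and 7735 CPM in con-in vitro and between 6.85 and 63.3 CPM in SAHA, in vivo PSMPs and con. The overexpressing oocytes therefore stood between con-in vitro and everything else. Cdc42, the GTPase that polarises the egg cortex, was at 107 and 95.7 CPM in PSMPs & OE-Hdac3, against 344 and 445 CPM in in vitro PSMPs (log2 -1.96 ± 0.30), and Wasf1, an activator of actin branching, rose (log2 1.82 ± 0.42).

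Among genes of the meiotic cell cycle, most of those that passed fell by TMM, beside 2.98% lower and 1.85% higher over all genes tested. Of 37 genes around cyclin B and Cdk1, 7 fell (18.9%) and 1 rose (2.7%), with a median log2 of -0.65 (5 fell and 3 rose, with a median of -0.10, by library totals). Ccnb1, the cyclin that drives entry into M phase, stood at 725 and 943 CPM in the overexpressing oocytes, against 3474 and 5139 CPM in in vitro PSMPs (log2 -2.37 ± 0.36, adjusted p = 0.0135, edgeR). Ccnb2, the cyclin that can stand in for it in oocytes, was at 115 and 124 CPM in PSMPs & OE-Hdac3, against 539 and 491 CPM in in vitro PSMPs (log2 -2.11 ± 0.32). Wee2, the oocyte kinase that keeps Cdk1 inactive, and Prkar1a, through which cAMP controls protein kinase A, fell (log2 -1.59 ± 0.30 and log2 -2.0 ± 0.37). The 1 that rose was Incenp, a subunit of the chromosomal passenger complex, at 172 and 167 CPM in the overexpressing oocytes, against 19.5 and 37.9 CPM in in vitro PSMPs, named after its values were seen. Both activators and inhibitors of Cdk1 were thus among the genes that fell.

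Of 32 genes of the anaphase-promoting complex and the spindle checkpoint 5 fell (15.6%) and 1 rose (3.12%), but by library totals 2 fell and 2 rose. Mad2l1, the checkpoint protein that restrains the complex, stood at 139.6 and 151 CPM in PSMPs & OE-Hdac3, against 802 and 1209 CPM in in vitro PSMPs (log2 -2.79 ± 0.43, adjusted p = 0.014, edgeR). Pttg1, the securin that the complex destroys, and Anapc11, the catalytic ring subunit, fell (log2 -2.52 ± 0.45 and log2 -2.65 ± 0.61). Anapc7, a scaffold subunit, rose, at 212 and 229 CPM in the overexpressing oocytes, against 43.9 and 36.2 CPM in in vitro PSMPs (log2 2.46 ± 0.41). Of 44 tubulins and kinesins 4 fell (9.09%) and 1 rose (2.27%), and by library totals 3 fell and 1 rose. Tubg2, a gamma-tubulin, was at 61.4 and 65 CPM in PSMPs & OE-Hdac3, against 259 and 358 CPM in in vitro PSMPs (log2 -2.29 ± 0.34), and Kif20b, Kif18a and Kif20a, motors of cytokinesis and chromosome alignment, fell (log2 -3.51 ± 0.53, log2 -3.70 ± 0.69 and log2 -2.28 ± 0.45). Tubb2b, a beta-tubulin named after its values were seen, rose, at 211 and 203 CPM in the overexpressing oocytes, against 13.3 and 11.9 CPM in in vitro PSMPs.

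Chromatin genes passed the test in both directions. For these lists and those of DNA and histone methylation below, the shares over all genes tested were 1.85% higher and 2.98% lower. Of 32 subunits of the SIN3, NuRD and CoREST complexes, which carry Hdac1 and Hdac2, 3 rose and 2 fell. Rbbp7, a histone chaperone of these complexes, was at 1286 and 1271 CPM in PSMPs & OE-Hdac3, against 4796 and 6190 CPM in in vitro PSMPs (log2 -2.10 ± 0.35, adjusted p = 0.0159, edgeR). Mbd3, of the methyl-CpG-binding family in NuRD, was at 104 and 86.0 CPM in the overexpressing oocytes, against 9.24 and 6.22 CPM in in vitro PSMPs (log2 3.62 ± 0.68). The related SIN3 subunits Sap30 and Sap30l moved apart, with log2 -1.81 ± 0.30 and log2 3.43 ± 0.59. The MOF complexes write H4K16ac, the histone mark that the chromatin samples of the series profiled, and of their 12 genes only Msl3 passed, at 45.7 and 38.8 CPM in PSMPs & OE-Hdac3, against 164 and 267 CPM in in vitro PSMPs (log2 -2.35 ± 0.36, adjusted p = 0.0132). Of 27 other acetyltransferase genes Ep400, the motor of the NuA4 complex, rose, at 390.1 and 329 CPM in the overexpressing oocytes, against 44.4 and 63.8 CPM in in vitro PSMPs (log2 2.73 ± 0.36). Hat1, which acetylates newly made histone, and Tada1, a SAGA subunit, fell (log2 -2.63 ± 0.50 and log2 -2.78 ± 0.51). Of 19 bromodomain genes Bptf rose and the germ cell gene Brdt fell (log2 1.87 ± 0.42 and log2 -2.46 ± 0.46).

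Of 17 DNA methylation genes 2 rose and 2 fell. Dnmt3a, the enzyme that sets methylation in growing oocytes, was at 344 and 292 CPM in PSMPs & OE-Hdac3, against 58.7 and 88.8 CPM in in vitro PSMPs (log2 2.11 ± 0.36, adjusted p = 0.0159, edgeR). Its cofactor Dnmt3l was at 29.2 and 44.5 CPM in the overexpressing oocytes, against 130 and 150.1 CPM in in vitro PSMPs (log2 -1.93 ± 0.45), and Zfp57, which protects imprints, fell (log2 -3.08 ± 0.56). Enzyme and cofactor thus moved in opposite directions. Of 39 histone methylation enzymes 4 rose and 2 fell. Kmt2b, which methylates H3K4 in oocytes, was at 55.4 and 58.7 CPM in PSMPs & OE-Hdac3, against 8.43 and 9.37 CPM in in vitro PSMPs (log2 2.68 ± 0.36, adjusted p = 0.0113). The demethylase Kdm5c and the methyltransferase Dot1l rose with it, and Kmt2d, another H3K4 methyltransferase, fell (log2 -1.56 ± 0.33).

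**Figure D4:**
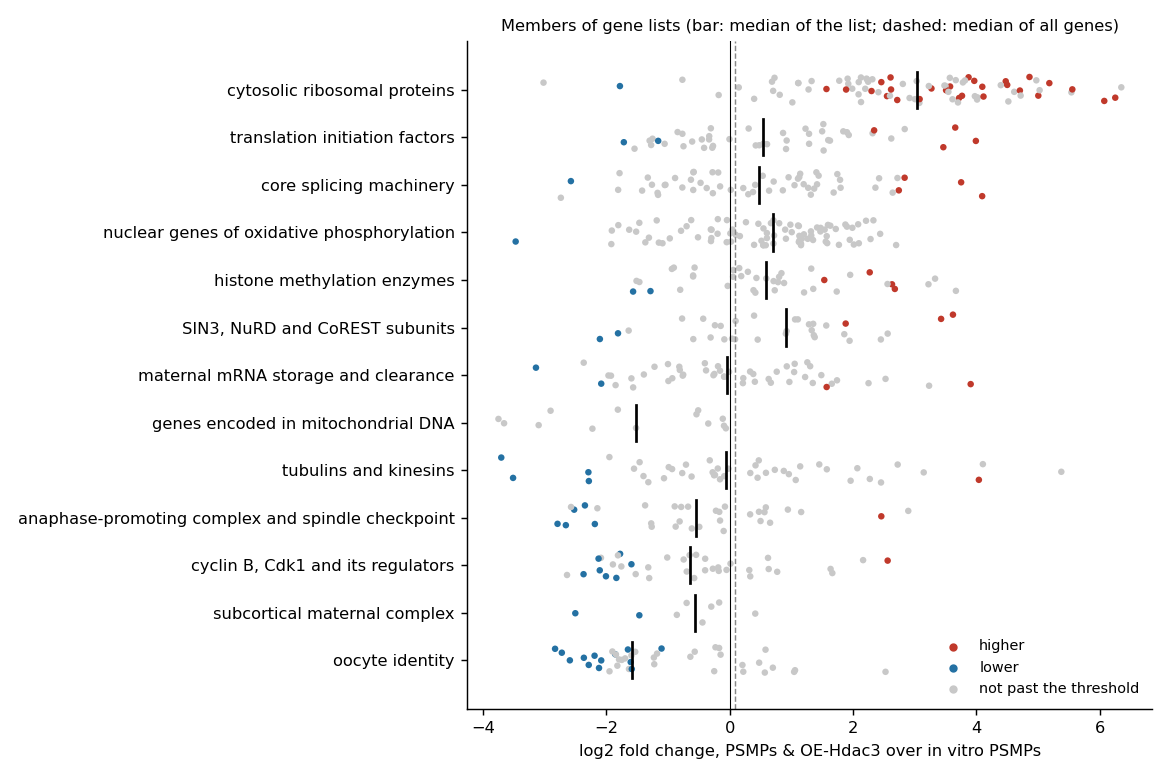
Log2 fold changes of PSMPs & OE-Hdac3 over in vitro PSMPs for the tested genes of 13 lists, 1 point per gene and 1 line of points per list. Genes past the test are coloured, a bar marks each list's median and the dashed line the median of all genes. The ribosomal proteins lie to the right, with 27 of 83 higher, and the oocyte identity genes to the left, with 13 of 41 lower.

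In metabolism few genes passed. Over glycolysis, the tricarboxylic acid cycle and oxidative phosphorylation 5 of 136 tested genes fell (3.68%, near the 2.98% of all genes tested) and none rose, against 3 lower and 1 higher by library totals. Of 27 tested glycolysis genes 1 fell, and it held most of the list's counts in in vitro PSMPs. Ldhb (mm10 chr6:142490249-142507957), the lactate dehydrogenase subunit of oocytes, stood at 1182 and 1255 CPM in the overexpressing oocytes, against 10060 and 12370 CPM in in vitro PSMPs (log2 -3.20 ± 0.30, adjusted p = 0.00775, edgeR). It was at 14360 and 16630 CPM in SAHA, 2295 CPM for in vivo PSMPs, 2000 and 2709 CPM in con, and 649 and 600 CPM with con-in vitro oocytes. In vitro PSMPs and SAHA were thus the high libraries, and the overexpressing oocytes lay within the range of the rest. The tricarboxylic acid cycle list also holds cytosolic enzymes, among them Me1 and Mdh1. Of its 24 tested genes 3 fell, beside a list median of log2 1.00. Me1, the cytosolic malic enzyme, was at 211 and 231 CPM in PSMPs & OE-Hdac3, against 984 and 1137 CPM in in vitro PSMPs (log2 -2.26 ± 0.44), and Mdh1 and Idh3a fell (log2 -1.82 ± 0.37 and log2 -1.48 ± 0.34). Of 85 nuclear genes of oxidative phosphorylation only Ndufa4, of the cytochrome oxidase, passed, at 31.2 and 29.0 CPM in the overexpressing oocytes, against 263 and 404 CPM in in vitro PSMPs, while the list median was 0.71. The genes that passed in these lists thus lay on the other side of 0 from the list medians.

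None of the 13 protein genes of the mitochondrial DNA passed, though all had fits below 0 by TMM (median log2 -1.52, or -0.97 by library totals). mt-Cytb, of complex III, was at 231 and 228 CPM in PSMPs & OE-Hdac3 and 474 and 839.9 CPM in in vitro PSMPs (log2 -1.52 ± 0.71, adjusted p = 0.285, edgeR), and mt-Co1, of complex IV, at 309.5 and 458 CPM in the overexpressing oocytes and 276 and 542 CPM in in vitro PSMPs with overlapping groups. The sign of mt-Co1 changed with the scaling, log2 -0.09 by TMM and 0.46 by library totals. Of 32 genes of mitochondrial dynamics and biogenesis Timm23, of the inner membrane import channel, and Dnm1l, the fission GTPase, fell (log2 -2.04 ± 0.38 and log2 -2.16 ± 0.41). Of 41 genes of fatty acid oxidation and lipid metabolism Etfa, which passes electrons from that pathway to the respiratory chain, fell (log2 -1.73 ± 0.32). The share lower over all genes tested was 2.98%.

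Of 23 cholesterol synthesis genes 1 rose and 2 fell, beside a median of 0.79. Over all genes tested 1.85% were higher and 2.98% lower. Idi1 (mm10 chr13:8885501-8892451), the isomerase of the isoprenoid building blocks, stood at 1.69 and 1.91 CPM in PSMPs & OE-Hdac3, against 57.6 and 136 CPM in in vitro PSMPs (log2 -5.74 ± 0.90, adjusted p = 0.0143, edgeR). It was at 164 and 139.5 CPM in SAHA and at 9.59 CPM or less in the other 5 libraries, so that again in vitro PSMPs and SAHA were the high ones. Msmo1, a later enzyme, fell (log2 -2.99 ± 0.55), and Scap, the escort of the sterol-sensing factor SREBP, rose, at 263 and 298 CPM in the overexpressing oocytes, against 31.5 and 45.0 CPM in in vitro PSMPs (log2 2.88 ± 0.54).

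Stress and survival lists gave 1 to 3 calls each, beside 1.85% higher and 2.98% lower over all genes tested. Of 39 genes of endoplasmic reticulum stress and heat shock, Atf4, the factor of the integrated stress response, rose, at 359 and 360.2 CPM in PSMPs & OE-Hdac3, against 57.4 and 39.3 CPM in in vitro PSMPs (log2 2.89 ± 0.53, adjusted p = 0.0207, edgeR). Hspa5, the chaperone BiP, fell, at 93.3 and 71.9 CPM in the overexpressing oocytes, against 274 and 305 CPM in in vitro PSMPs (log2 -1.81 ± 0.35). Of 40 antioxidant and glutathione genes Nfe2l1, a regulator of proteasome and redox genes, rose (log2 2.51 ± 0.39) and the peroxiredoxin Prdx1 fell, at 568 and 632 CPM in PSMPs & OE-Hdac3, against 1673 and 2746 CPM in in vitro PSMPs. These pairs moved in opposite directions within a list. Chek1, the replication checkpoint kinase, was the 1 of 48 DNA damage genes that passed, at 171 and 205 CPM in the overexpressing oocytes, against 1023 and 1550 CPM in in vitro PSMPs (log2 -2.78 ± 0.45, adjusted p = 0.015). Of 38 genes of apoptosis and p53, Cdkn1b, which encodes the Cdk inhibitor p27, rose (log2 3.73 ± 0.66), and Bcl2l10, an oocyte member of the Bcl2 family, and Birc3 fell (log2 -1.60 ± 0.31 and log2 -1.61 ± 0.33).

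The largest changes were taken among named genes past the test with at least 10 CPM in the higher group. Trim21 and the ribosomal protein genes named above were among the 15 largest rises. Usp27x, a deubiquitinase, stood at 36.4 and 36.1 CPM in PSMPs & OE-Hdac3, against 0.973 and 0.242 CPM in in vitro PSMPs (log2 5.88 ± 1.10, adjusted p = 0.021, edgeR). Stk11, the kinase LKB1, was at 54.6 and 58.8 CPM in the overexpressing oocytes, against 2.19 and 1.62 CPM in in vitro PSMPs (log2 4.89 ± 0.77). These rises came from levels of a few CPM in in vitro PSMPs. Zbtb7b, a zinc finger regulator, Csrnp1, a nuclear protein, Lrrc4, a synaptic adhesion protein, Xndc1, and Bicra, a subunit of a BAF remodelling complex, had log2 of 5.16, 5.06, 4.89, 4.88 and 4.83. Usp27x, Stk11, Csrnp1, Lrrc4 and Bicra were also at 18.1 CPM or more in both con-in vitro libraries, and these 5, Zbtb7b and Xndc1 were at 1.81 CPM or less in SAHA.

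The 15 largest falls began with Btn1a1, a butyrophilin of milk fat secretion, at 0.325 and 0.455 CPM in PSMPs & OE-Hdac3, against 29.3 and 14.1 CPM in in vitro PSMPs (log2 -5.78 ± 1.20, adjusted p = 0.0294, edgeR). Bmp5, a ligand of the TGF-beta family, stood at 5.27 and 6.55 CPM in the overexpressing oocytes, against 182 and 284 CPM in in vitro PSMPs (log2 -5.30 ± 0.80), and was at 317 and 347 CPM in SAHA and 22.5 CPM or less in the other 5 libraries. Dennd6a, a regulator of Rab GTPases, was at 58.0 and 43.5 CPM in PSMPs & OE-Hdac3, against 638 and 994 CPM in in vitro PSMPs (log2 -4.01 ± 0.47). Dennd6a was also high in SAHA, at 1382 and 1261 CPM, and in con-in vitro, at 1395 and 1079 CPM. Lrp1b (mm10 chr2:40595246-42653624), a lipoprotein receptor, had the smallest error among these genes, at 14.2 and 14 CPM in the overexpressing oocytes, against 203 and 226 CPM in in vitro PSMPs (log2 -3.93 ± 0.36, adjusted p = 0.00775). Gstm5, a glutathione transferase, and Pnpla3, a lipid droplet protein, fell (log2 -4.13 ± 0.58 and log2 -4.78 ± 0.79). H2-Aa, a class II histocompatibility gene that immune cells express, was at 0.456 and 1.09 CPM in PSMPs & OE-Hdac3, against 12 and 22.1 CPM in in vitro PSMPs. Of the blood, immune and endothelial markers given above, all 3 tested had fits below 0 and none passed. The immune marker Cd68 was among these 3, and the immune markers Ptprc, Adgre1 and Lyz2 had no count in the 4 libraries. Also among the 15 largest falls were Idi1, Septin12, Rln3, Rex2, Zfp735, Prrg1 and Lpcat4, with log2 from -5.74 to -3.97.

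**Figure D5:**
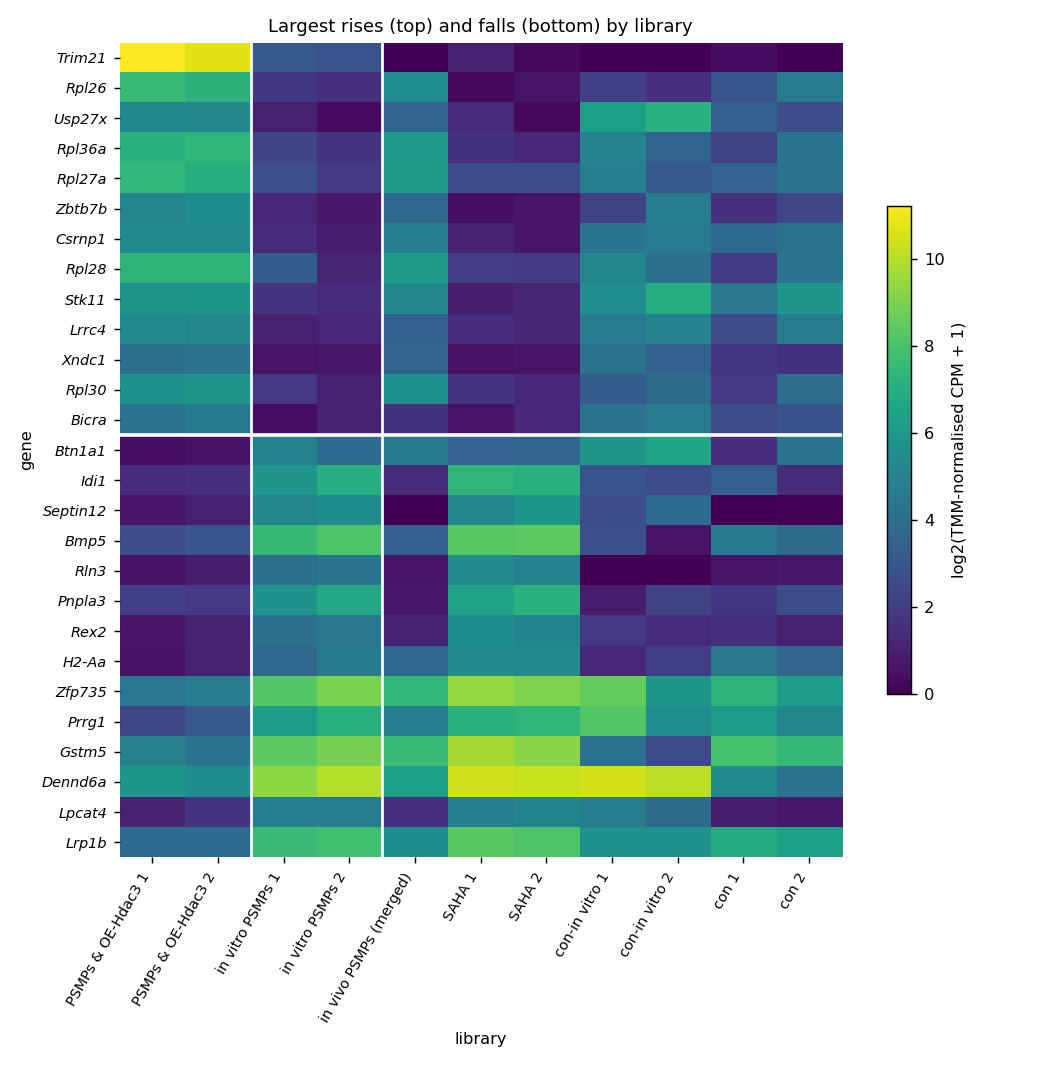
Level, log2(CPM + 1), of the genes named among the largest rises (upper block) and the largest falls (lower block) in each library, with PSMPs & OE-Hdac3 at the left. The SAHA columns are low in the upper block and high in the lower block, as the in vitro PSMPs columns are, while con and con-in vitro vary between genes.

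The called genes were then looked up in contrasts that share no library with this comparison but come from the same fit. Calls in both thus rest on a shared estimate of spread, to which the SAHA libraries contribute. The part of this in the overlaps was not tested. SAHA inhibits deacetylases of the class to which Hdac3 belongs, and since the labels do not name its control, SAHA was set against both con-in vitro and con. Of the 309 genes higher in PSMPs & OE-Hdac3, 258 (83.5%) were lower in SAHA than in con-in vitro, which is 18.9% of the 1363 genes lower there, and 3 were higher. Of the 499 genes lower in PSMPs & OE-Hdac3, 381 (76.4%) were higher in SAHA than in con-in vitro, which is 19.5% of the 1950 genes higher there, and 17 were lower. Most called genes thus moved in opposite directions in the pair of contrasts. Over all genes tested, 8.14% were lower and 11.7% higher in SAHA than in con-in vitro. The con-in vitro libraries, of 6.22 M and 6.403 M counts, had 52.25% and 53.28% of them on the 100 most abundant genes. In SAHA these shares were 36.07% and 35.8%. The part of this difference in the contrasts with con-in vitro, here and below, was not tested. Against con, the opposed genes were 228 (73.8%, and 20.2% of 1129) and 199 (39.9%, and 5.88% of 3382), with 7 and 3 in the same direction, beside 6.75% lower and 20.2% higher over all genes. In vitro PSMPs, on which each call here rests, correlated with SAHA at 0.922 to 0.956 across genes, and the part of that likeness in these counts was not tested.

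Against the culture controls, contrasts that share libraries with the one above and are given as values only, 414 genes (2.47%) were higher and 659 (3.94%) lower in PSMPs & OE-Hdac3, 6.41% in all, and 1435 (8.57%) were higher and 1135 (6.78%) lower in in vitro PSMPs, 15.4% in all. Hdac3 against con-in vitro was log2 3.48 ± 0.48, adjusted p = 0.00254 in PSMPs & OE-Hdac3 and log2 -1.03 ± 0.44, adjusted p = 0.142 in in vitro PSMPs (edgeR). Rpl26 was log2 6.01 ± 0.85, adjusted p = 0.00332 in PSMPs & OE-Hdac3 and log2 -0.24 ± 0.74, adjusted p = 0.852 in in vitro PSMPs. In these 2 genes the overexpressing oocytes were above the culture controls, and in vitro PSMPs did not pass. Trim21, which had no count in con-in vitro, was higher than there both in PSMPs & OE-Hdac3 (adjusted p = 0.00126) and in in vitro PSMPs (adjusted p = 0.0318, edgeR). Ldhb was log2 0.96 ± 0.28, adjusted p = 0.0731 in PSMPs & OE-Hdac3 and log2 4.17 ± 0.31, adjusted p = 0.000102 in in vitro PSMPs. Bmp15 was log2 -1.76 ± 0.31, adjusted p = 0.00988 in PSMPs & OE-Hdac3 and log2 0.61 ± 0.30, adjusted p = 0.189 in in vitro PSMPs. Against the culture controls Ldhb thus passed in in vitro PSMPs, and Bmp15 in PSMPs & OE-Hdac3.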

How the data were processed

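RNA sequencing of pooled mouse oocytes was analysed from the authors' deposited table of raw counts per gene, whose gene coordinates are on mm10. Tools named in the submitters' processing notes, without their roles, include featureCounts, HISAT2 and fastp 0.12.4 (the chromatin tools are left out here), and whether counting used strand is not given in the sources used here. Samples were grouped by their labels into 6 RNA groups. The samples of in vivo PSMPs, with a chi-square per degree of freedom of 0.440 between them, entered as their rounded mean, which left 11 libraries.

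Genes were kept by edgeR's filterByExpr at a minimum count of 10, which left 16736 of 55401. Counts were scaled by TMM and tested with edgeR's quasi-likelihood test (edgeR 4.0.16 in R 4.3.3) in 1 fit with a coefficient per group, with 5 residual degrees of freedom and Benjamini-Hochberg adjustment at 0.05. A standard error is the fold change over the root of F. Correlations between libraries are Pearson's r of log2 CPM. The fit was checked on simulated counts. Alternatives used DESeq2 1.42.0, other scalings and filters, and left out each library. The gene lists, the genes compared and the tests were chosen with earlier results of these data known. The text names Hdac3, Trim21, deacetylase genes, the 15 largest rises and falls (genes past the test whose higher group averages 10 CPM or more, without overlap or unnamed gene models), and in each list up to 4 called genes of smallest p, or, with none called, the 2 of highest mean CPM. Some genes that this rule names are not reported here. Chromatin samples were not analysed here. Promoter sequences are RefSeq's (GRCm38.p6).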

Additional observations from a re-analysis of the deposited data

How the results depend on the processing

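The 128 genes past the test whose values were followed, among them those named here, kept their direction under every alternative run. The count of 808 stayed within 1.5 times under other filters, scalings and without mitochondrially encoded genes (770 to 1046), but was 2576 with DESeq2's Wald test, 1489 with the in vivo PSMPs columns as 2 libraries, 5491 with only the 4 libraries compared and 5999 without con and con-in vitro. A like count did not mean the same genes. Of the 854 calls by library totals, 614 were among the 808, and 548 were higher and 306 lower. Leaving out single libraries gave 0 to 7052 over edgeR, DESeq2 and the fit without controls. The cause was not tested. Deviations of replicate 1 from its group mean, correlated over genes between the groups compared, gave r = -0.04. With 2 libraries per group this is a single value, which cannot settle whether the replicate numbers pair the samples. A replicate block gave 537 calls, of which 534 were among the 808. With the block, 19 of the 30 largest changes, 14 ribosomal genes higher, 8 oocyte identity genes lower and 86 list members passed.

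For ribosomal protein genes higher (27), the counts were 61 with DESeq2, 71 with 4 libraries, 73 without the controls, and 0 to 71 without single libraries. For oocyte identity genes lower (13), they were 7 with library totals, 22, 26 and 26, and 0 to 28. For list members called (132), they were 322, 552 and 599, 212 with the in vivo PSMPs columns as 2 libraries, and 0 to 727. Of the 30 largest changes, 0 to 30 passed without single libraries.

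Genes higher here and lower in SAHA than in con-in vitro (258) numbered 807 with DESeq2, 470 with the in vivo PSMPs columns as 2 libraries and 167 with the block, and 0 to 764 without single libraries. Genes lower here and higher in SAHA (381) numbered 1051, 651 and, without single libraries, 0 to 976. Against con, the counts were 389 with library totals, 645, 402, 148 with the block and 0 to 576 (228), and 130, 654, 388, 121 and 0 to 653 (199).

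With library totals, the named genes Btn1a1, Dnmt3l, Kmt2d, Nlrp4f, Anapc11, Hormad1, Prdx1, Hspa5, Becn1, Atg4a, Mdh1, Idh3a, Trim23, Dusp1, Kif20a, Klf17, Nlrp14, E330034G19Rik, Tcl1b1, H1f8, Omt2a, Oog3 and Rps27l no longer passed. Without a filter on low counts Idh3a, Thra and 1 of the 30 largest changes did not pass, with DESeq2's size factors Thra, Tcl1b1, H1f8, Oog3 and Rps27l did not, and without mitochondrially encoded genes Rps27l did not. Of 28 genes followed that had not passed, 13 passed without con and con-in vitro, 4 with DESeq2's Wald test, and 12 of 27 with only the 4 libraries compared. With library totals, Ncor1 (log2 0.36), mt-Co1 (0.46), Kdr (0.42) and Sirt7 (0.37), none past the test, changed sign. Without single libraries, the log2 of genes not past the test ran from -0.96 to 0.64 for Hdac1, -0.46 to 1.26 for Hdac4, -0.26 to 1.69 for Sirt1, -0.40 to 1.39 for Sirt2, -0.63 to 0.70 for Sirt7, -0.15 to 0.72 for Samhd1, -0.73 to 0.39 for Ncor1, -0.63 to 0.48 for mt-Co1 and -0.78 to 0.31 for Kdr. With 7.03 M counts in the shallowest library compared, 3 counts correspond to 0.273 CPM, which limits what can be said of genes near 0, for counting error only.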

Other observations

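Several lists not described above had 1 to 3 genes past the test, beside 1.85% higher and 2.98% lower over all genes tested. Of 39 autophagy genes Becn1, a core initiator, fell to 20.2 and 19 CPM in PSMPs & OE-Hdac3, against 73.4 and 99.9 CPM in in vitro PSMPs (log2 -2.14 ± 0.42, adjusted p = 0.024, edgeR), Atg4a, a protease of the pathway, fell (log2 -3.65 ± 0.81) and Rubcn, a negative regulator, rose (log2 1.86 ± 0.40). Of 47 proteasome genes Psmb2, a core subunit, fell to 90.2 and 108 CPM in the overexpressing oocytes, against 388 and 436 CPM in in vitro PSMPs (log2 -2.06 ± 0.35), beside a median of log2 0.52 over the list. Of 20 egg activation genes Atp2a2, the calcium pump of the endoplasmic reticulum, rose to 290.1 and 258 CPM in PSMPs & OE-Hdac3, against 61.6 and 75.3 CPM in in vitro PSMPs (log2 2.00 ± 0.31), and the zinc importer Slc39a10 fell (log2 -1.92 ± 0.34). Of 25 genes of meiotic cohesin and recombination Hormad1, a protein of the chromosome axis, fell (log2 -2.96 ± 0.69).

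Of 17 tested genes of zygotic genome activation Yap1, the effector of Hippo signalling, rose to 209 and 339.7 CPM in the overexpressing oocytes, against 25.2 and 49.1 CPM in in vitro PSMPs (log2 2.88 ± 0.50, adjusted p = 0.0182, edgeR), and the transcription factor Klf17 fell to 450.1 and 331 CPM in PSMPs & OE-Hdac3, against 1157 and 1776 CPM in in vitro PSMPs (log2 -1.91 ± 0.37). Of 37 circadian clock and nuclear receptor genes Thra, a thyroid hormone receptor, rose (log2 3.14 ± 0.75). Of 17 immediate early genes Dusp1, a phosphatase of MAP kinases, fell (log2 -1.67 ± 0.37). Of 5 spermatid markers 2 were tested and neither passed.

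A pair of genes past the test, chosen after their values were seen, had no count in 1 group. Mir703 was listed at 0 in both in vitro PSMPs libraries and was at least 32.0-fold higher in PSMPs & OE-Hdac3, and Gm15801 was at 0 in both PSMPs & OE-Hdac3 libraries and at least 64.7-fold lower there, each against 3 counts over the group. By length, the median log2 was -0.23 in genes of up to 1899 bases, 0.06 in genes of up to 3627 bases, 0.31 in genes of up to 6141 bases and 0.21 in longer ones. The median length of the ribosomal protein genes was 1726 bases.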
